A study of Mus musculus with 16 samples.

Results

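The genes described here are 8 genes of Schwann cells and peripheral myelin, Prx, Pmp22, Ncmap, Pmp2, Drp2, Egr2, Cldn19 and Dhh, chosen by gene symbol out of the 24411 symbols in the deposited tables. All 8 were among the 16091 genes tested. They were measured by RNA sequencing of spinal cord from 16 female C57BL/6J mice, kept to 12 wk of age before any injury. SCI + Vehicle (n = 7) and SCI + Atorvastatin (n = 7) mice received a lateral compression of the thoracic cord to 0.25 mm, followed from 2 wk post-injury by 4 wk of daily intraperitoneal vehicle (DMSO, polyethylene glycol, Tween and saline) or atorvastatin, a cholesterol-lowering HMG-CoA reductase inhibitor, at 10 mg/kg in that vehicle. Uninjured Control mice (n = 2) had neither compression nor treatment. By the study's methods their cords were isolated at a younger age than those of the SCI mice, so that age and injury cannot be told apart in any comparison with them. A 5 mm section of cord was taken, at 6 wk post-injury in the SCI groups.

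Schwann cells wrap the axons of nerve roots and peripheral nerves, whereas oligodendrocytes wrap those inside the spinal cord. The myelin of Schwann cells is organised by the transcription factor EGR2 together with SOX10, and is built from proteins that oligodendrocytes make little of. Periaxin (Prx) binds DRP2 and, through it, dystroglycan, which holds the outer Schwann cell membrane to the basal lamina. PMP22 is a membrane protein of compact myelin, PMP2 a fatty acid binding protein, and claudin-19 a tight junction protein between myelin turns. NCMAP is a membrane protein of non-compact myelin. Desert hedgehog (Dhh) is a ligand that Schwann cells send to the surrounding perineurium. Schwann cells can enter the injured cord and can also come with attached nerve roots, and several of the genes, Pmp22 and Egr2 among them, are transcribed in other cell types too. In a piece of tissue, fewer cells of a type and less RNA per cell cannot be told apart.

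Total counts per library ranged from 14823292, in SCI + Vehicle replicate 4, to 25579826. A gene with 0 counts could still lie at up to 3 counts, which was 0.117 to 0.202 CPM (counts scaled to the size of the library) across the libraries, a limit that covers counting error only. The labelled tissue was checked with Mog, a gene of oligodendrocyte myelin, and Snap25, a neuronal gene, which were present in every mouse, and the summed TPM (a level normalized for gene length and library size) of 11 central myelin genes was 4296 to 7399. The Uninjured Control libraries had counts for 12356 and 12732 genes against 16399 to 19338 in SCI mice. They also held 1062 and 5593 TPM of 4 liver genes, against at most 11.4 in any SCI mouse, and the part of this RNA in the results was not tested. SCI + Vehicle replicates 4 and 7 were the 2 lowest SCI mice in most of the genes described here. A test for single outlying mice in CPM (Dixon's ratio, 95% level) marked 0 of 16 gene and group sets. It reads the gap between the lowest mouse and the next, so 2 low mice hide each other and it cannot judge this pair. Fold changes with vehicle are given with and without these mice, an alternative chosen after their values were seen. The pair was picked as the 2 SCI + Vehicle mice lowest in Prx, so a smaller spread of Prx without them was built into the choice.

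In TPM, Pmp22 was the most abundant of the 8 genes in each group, with means of 250.6 (SD 34.7, n = 7) in SCI + Atorvastatin, 193 (SD 74.1, n = 7) in SCI + Vehicle and 248 (SD 68.9, n = 2) in Uninjured Control mice. Prx and Drp2 came next, and their ranges overlapped in every group. The mean TPM of the other 5 genes lay between 2.04 and 11.3 in the SCI groups, and neighbours in the order of these means had overlapping ranges.

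**Figure D1:**
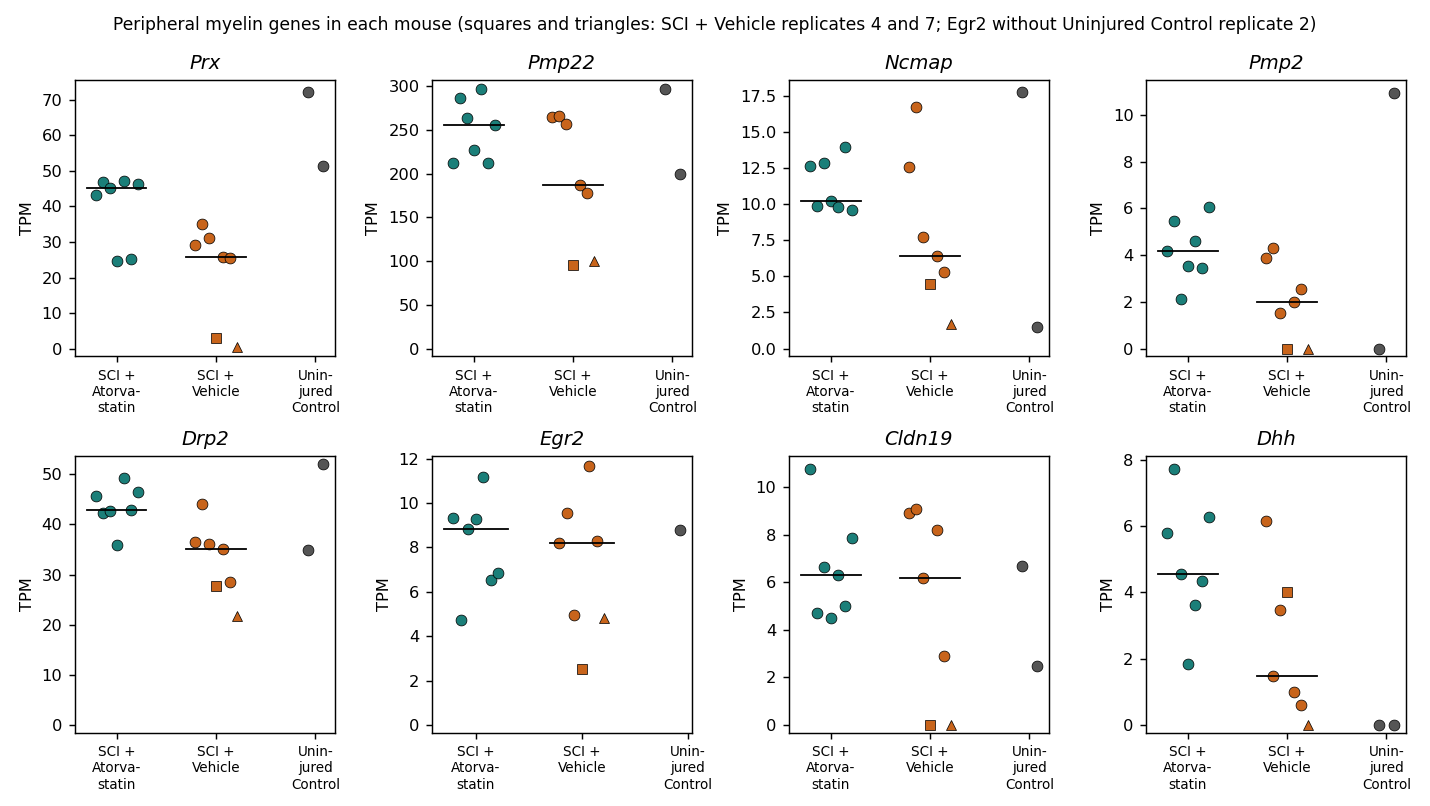
TPM of the 8 genes (vertical axes, 1 panel per gene) in each mouse of the 3 groups (horizontal axes), with a line at the median of each SCI group and a square and a triangle for SCI + Vehicle replicates 4 and 7. Egr2 of Uninjured Control replicate 2, in which counts and TPM disagree, is not drawn. Prx of all 14 SCI mice lies below both Uninjured Control mice, and the square and the triangle lie at 2.87 and 0.52 TPM.

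The question for each injured group was how peripheral myelin genes stood against uninjured cord. Prx was lower in every SCI mouse than in either control, in TPM and in CPM. Its TPM was 72.05 and 51.32 in Uninjured Control mice. In SCI + Atorvastatin mice the lowest, median and highest were 24.67, 45.05 and 47.12 TPM. In SCI + Vehicle mice they were 0.52, 25.69 and 35.16 TPM. Within SCI + Atorvastatin, replicates 4 and 6 (24.67 and 25.29 TPM) stood below the other 5 mice, which lay from 43.31 to 47.12 TPM. Of all genes tested, 8.91% had every SCI + Atorvastatin mouse, and 6.67% every SCI + Vehicle mouse, below both controls.

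Prx fell in SCI + Atorvastatin vs. Uninjured Control, with a log2 fold change of -0.83 (SE 0.284, adjusted p = 0.0412 from edgeR's quasi-likelihood test). A call in these comparisons is an absolute log2 fold change above 0.322 with a Benjamini-Hochberg adjusted p below 0.05. In SCI + Vehicle vs. Uninjured Control the log2 fold change was -1.80 (SE 0.917, adjusted p = 0.167 from edgeR). Without SCI + Vehicle replicates 4 and 7 it was -1.35 (SE 0.198, adjusted p = 0.00279 from edgeR), which meets the limits of a call. These mice were picked for their low Prx, so the smaller SE was built into the choice and this call is no support. The call with atorvastatin was lost in 9 of 17 alternatives, 5 of them the removal of a single mouse: SCI + Atorvastatin replicate 1 (adjusted p = 0.0675), 4 (0.0505), 6 (0.0504) or 7 (0.0532), or Uninjured Control replicate 1 (log2 fold change -0.48, adjusted p = 0.179), all from edgeR. The other 4 were all 3 groups in 1 edgeR fit (adjusted p = 0.388), limma on log2(TPM + 1) (0.108), voom with group quality weights (0.549) and the replicate number as a block (0.702).

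Prx lies on chromosome 7 of GRCm38 (27499324 to 27520214, plus strand). It overlaps an antisense gene, Gm15541, and use of strand in the counting was not stated in the sources used here, so reads of the pair cannot be told apart. The 250 bases before its start in RefSeq (chr7:27499074-27499323, plus strand, GRCm38.p6) are shown because Prx was the member called lower than in uninjured cord. They hold neither the EGR core GTGGGCG nor the SOX cores ACAAAG and ACAATG on either strand.
Prx upstream: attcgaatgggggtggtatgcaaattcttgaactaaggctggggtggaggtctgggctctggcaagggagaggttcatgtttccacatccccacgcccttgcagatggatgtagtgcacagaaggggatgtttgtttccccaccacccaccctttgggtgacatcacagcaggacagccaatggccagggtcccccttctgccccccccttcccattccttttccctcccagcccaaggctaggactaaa

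Drp2, the dystrophin-related partner of periaxin, overlapped the controls in both SCI groups. Its TPM was 34.85 and 52.12 in Uninjured Control mice, 35.87, 42.79 and 49.29 (lowest, median and highest) in SCI + Atorvastatin mice and 21.65, 35.09 and 44.07 in SCI + Vehicle mice. All 7 SCI + Atorvastatin mice lay between the controls in TPM, and 3 SCI + Vehicle mice lay below both. In CPM, 5 SCI + Vehicle mice lay below both controls, as did 1 SCI + Atorvastatin mouse, and 1 SCI + Atorvastatin mouse lay above both. The log2 fold change against Uninjured Control was -0.43 (SE 0.214, adjusted p = 0.16 from edgeR) with vehicle, -0.29 (SE 0.156) without replicates 4 and 7, and -0.03 (SE 0.129, adjusted p = 0.899 from edgeR) with atorvastatin. The TPM of Drp2 per TPM of Prx was 0.484 and 1.02 in the controls and 0.902 to 1.69 (median 1.05) in SCI + Atorvastatin mice. In SCI + Vehicle its median was 1.3 and its highest value, in replicate 7, was 41.6. Drp2 is on the X chromosome (134404551 to 134456573, plus strand) with no overlapping gene.

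The structural genes of compact myelin overlapped the controls. Pmp22, whose dosage underlies inherited demyelinating neuropathy, was at 296.69 and 199.29 TPM in Uninjured Control mice. It was at 211.8, 255.7 and 297.4 TPM (lowest, median and highest) in SCI + Atorvastatin mice and at 95.5, 186.6 and 266 TPM in SCI + Vehicle mice. In SCI + Vehicle, 4 mice lay below both controls. The log2 fold change was -0.39 (SE 0.395, adjusted p = 0.498 from edgeR) with vehicle, -0.13 (SE 0.25) without replicates 4 and 7, and 0.03 (SE 0.216, adjusted p = 0.943 from edgeR) with atorvastatin, the latter turning to -0.001 with the size factors of DESeq2. Pmp22 lies on chromosome 11 (63128982 to 63159547, plus strand) with no overlapping gene.

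Pmp2, the fatty acid binding protein of peripheral myelin, was decided by 1 control mouse. Uninjured Control replicates 1 and 2 had 0 and 200 counts of it (0 and 10.96 TPM). Its TPM was 2.12, 4.17 and 6.07 in SCI + Atorvastatin mice and 0, 1.99 and 4.31 in SCI + Vehicle mice, where replicates 4 and 7 were at 0 counts. The log2 fold change was -1.77 (SE 1.71, adjusted p = 0.475 from edgeR) with vehicle, -1.29 (SE 1.49) without these mice, and -0.79 (SE 1.2, adjusted p = 0.642 from edgeR) with atorvastatin. Without Uninjured Control replicate 1 the value with atorvastatin was -1.79 (adjusted p = 0.0245 from edgeR) and a call, and without replicate 2 the remaining control was at 0 counts, the sign turned and the value was a call too (adjusted p = 0.00161 from edgeR). Among the 1401 genes with a mean count in SCI mice within 1.5 times that of Pmp2, 30.9% were at 0 in 1 of the 2 control mice and 61.7% in both.

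Cldn19 and Ncmap, of the tight junctions and the non-compact myelin, had wide ranges in the vehicle group. Cldn19 was at 6.67 and 2.48 TPM in the controls, 4.48, 6.31 and 10.77 TPM in SCI + Atorvastatin mice and 0, 6.19 and 9.1 TPM in SCI + Vehicle mice. Both 0 values were SCI + Vehicle replicates 4 and 7, which had 9 and 0 counts. The log2 fold change of Cldn19 was -0.41 (SE 1.31, adjusted p = 0.851 from edgeR) with vehicle, 0.05 (SE 0.6) without those replicates, and 0.14 (SE 0.503, adjusted p = 0.855 from edgeR) with atorvastatin. Ncmap was at 17.79 and 1.46 TPM in the controls, 9.58, 10.18 and 13.92 TPM in SCI + Atorvastatin mice and 1.7, 6.44 and 16.73 TPM in SCI + Vehicle mice. All SCI mice lay between the controls in TPM. The control counts of Ncmap, 219 and 115, differed less than the TPM, and in CPM 3 SCI + Vehicle mice lay below both controls and 2 above both. Its log2 fold change was -0.30 (SE 0.72, adjusted p = 0.793 from edgeR) with vehicle, 0.03 (SE 0.607) without replicates 4 and 7, and 0.09 (SE 0.376, adjusted p = 0.876 from edgeR) with atorvastatin. Both genes are on chromosome 4, Cldn19 at 119255414 to 119262438 on the plus strand, overlapping the antisense gene Gm12927, and Ncmap at 135369576 to 135398227 on the minus strand, overlapping the pseudogene Gm12991.

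Egr2, the transcription factor of the myelinating state, was close to the controls in counts. Uninjured Control replicates 1 and 2 had 213 and 184 counts of it, while its TPM there was 8.78 and 0, so that the deposited tables disagree for the second mouse and its TPM is not used as a level. In counts the lowest, median and highest were 120, 210 and 329 in SCI + Atorvastatin mice and 66, 197 and 262 in SCI + Vehicle mice. The ranges overlapped. The log2 fold change was -0.25 (SE 0.449, adjusted p = 0.716 from edgeR) with vehicle, -0.06 (SE 0.411) without replicates 4 and 7, and -0.03 (SE 0.38, adjusted p = 0.967 from edgeR) with atorvastatin. Egr2 is on chromosome 10 (67535475 to 67542188, plus strand).

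Dhh, the hedgehog ligand of Schwann cells, was counted in injured cord only. It had 0 counts in both Uninjured Control mice, 50 to 160 counts in SCI + Atorvastatin mice and 0 to 166 in SCI + Vehicle mice, of which replicate 7 had 0. In TPM the lowest, median and highest were 1.83, 4.57 and 7.73 with atorvastatin and 0, 1.49 and 6.16 with vehicle. Against 3 counts per control library, a limit for counting error only, mean CPM of Dhh was 31.2-fold higher with atorvastatin (adjusted p = 2.12e-04 from edgeR). With vehicle it was 16.2-fold higher (adjusted p = 0.0441 from edgeR). These folds may not be lower bounds, since many genes counted like Dhh in SCI mice, 63.5% and 66.1%, were at 0 in the control libraries. Dhh was among the genes tested only because its mean TPM exceeded 1 in the SCI groups, so that a gene at 0 in the controls had to be higher there to enter. Without a filter on low values its adjusted p was 2.55e-04 with atorvastatin and 0.0442 with vehicle, both from edgeR. Without replicates 4 and 7 it was 0.023 with vehicle. Of the 1470 genes with a mean count in SCI mice within 1.5 times that of Dhh, 45.4% were at 0 in both control mice, and at most 2.99% were at 0 in any SCI mouse. All 7 SCI + Atorvastatin mice were above both controls in Dhh, as were those of 32.3% of all genes tested. The call with atorvastatin was lost under voom with group quality weights (adjusted p = 0.484) and the replicate block (adjusted p = 0.743 from edgeR). The call with vehicle was lost in 11 of 17 alternatives, among them the removal of any mouse other than SCI + Vehicle replicate 7 (adjusted p = 0.0538 to 0.0689 from edgeR). Dhh lies on chromosome 15 (98891152 to 98898540, minus strand) and overlaps Rhebl1, which is in the count table, and the antisense gene Gm49442.

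Counted over the 8 genes, 1 was called in SCI + Vehicle vs. Uninjured Control (Dhh, higher), where 29.4% of all genes tested were called. Without SCI + Vehicle replicates 4 and 7, 2 were called (Dhh higher, and Prx, on which this pair was picked, lower), where 27.2% of all genes were. With atorvastatin against the same controls, 2 were called (Dhh higher, Prx lower), where 38.9% of all genes were. By direction, 19.8% of all genes were called higher and 9.55% lower with vehicle, and 24.9% and 14% with atorvastatin. The median log2 fold change of the 8 genes was -0.40 with vehicle (-0.09 without replicates 4 and 7) and 0.001 with atorvastatin, also with Dhh at its bound, against 0.17 and 0.21 over all genes tested. Both comparisons share the 2 control mice.

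**Figure D2:**
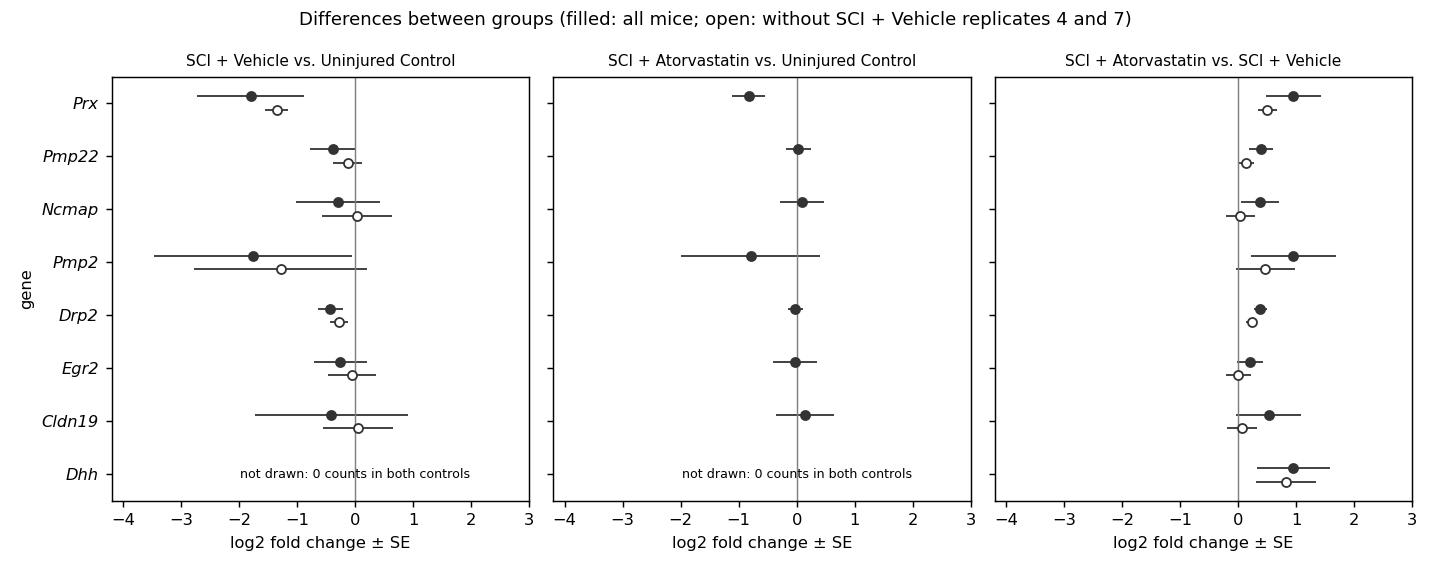
Log2 fold changes from edgeR (horizontal axes, points) with standard errors (bars) for each gene (vertical axis) in 3 comparisons, with filled points for all mice and open points without SCI + Vehicle replicates 4 and 7. Dhh is not drawn against the Uninjured Control because it had 0 counts in both control mice, and the open points for SCI + Atorvastatin vs. SCI + Vehicle lie nearer 0 than the filled ones for all 8 genes.

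The comparison of the treatments asked whether peripheral myelin genes differed with delayed atorvastatin. No member passed the limit of an absolute log2 fold change above 0.322 with an unadjusted p below 0.001, which 0.106% of all genes tested passed, and edgeR gave no gene an adjusted p below 0.05. DESeq2, limma and voom called 0 of the 8 too. At an unadjusted p below 0.05 stood 1 of the 8, Drp2, beside 7.03% of all genes. All 8 had a log2 fold change above 0, with a median of 0.46 against -0.001 over all genes. Drp2 was 0.38 (SE 0.116, unadjusted p = 0.00384, adjusted p = 0.68 from edgeR), and its TPM ranges of 35.87 to 49.29 and 21.65 to 44.07 overlapped. Prx was 0.95 (SE 0.482, unadjusted p = 0.0623, adjusted p = 0.724 from edgeR), and 2 of 7 SCI + Atorvastatin mice lay within the SCI + Vehicle range.

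These differences were smaller without SCI + Vehicle replicates 4 and 7. Prx was then 0.50 (SE 0.165, unadjusted p = 0.00671 from edgeR) and Drp2 0.23 (SE 0.0931, unadjusted p = 0.0218 from edgeR), with adjusted p = 1 for both. These 2 members then stood at an unadjusted p below 0.05, beside 4.25% of all genes. For Prx, on which the pair left out was picked, the smaller SE was built into the choice. Pmp22 went from 0.39 (SE 0.202) to 0.13 (SE 0.133), and Ncmap from 0.37 (SE 0.328) to 0.03 (SE 0.252). Cldn19 went from 0.53 (SE 0.56) to 0.07 (SE 0.258) and Egr2 from 0.20 (SE 0.227) to -0.001 (SE 0.213). Pmp2 went from 0.95 (SE 0.735) to 0.47 (SE 0.511), and Dhh from 0.95 (SE 0.624) to 0.82 (SE 0.515). The median of the 8 was then 0.18. Leaving out SCI + Vehicle replicate 2 instead gave Drp2 0.45 (unadjusted p = 8e-04, adjusted p = 0.42 from edgeR), the only call of a member between the treatments among the alternatives.

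SCI + Vehicle replicates 4 and 7 differed from the other mice gene by gene. In percent of the median TPM of the 14 SCI mice, they had 9.56 and 1.73 of Prx, 45.5 and 17.3 of Ncmap, and 39.5 and 41.4 of Pmp22. They were at 0 TPM in Pmp2 and Cldn19. Drp2, at 70.6 and 55, was nearest to the median among the genes in which these were the 2 lowest mice. Egr2 was at 30.3 and 58.2 and Dhh at 105 and 0, so that replicate 4 had a usual level of Dhh with little Prx. The 2 mice were the 2 lowest of the 14 in CPM for 6 of the 8 genes (Prx, Pmp22, Ncmap, Pmp2, Drp2 and Cldn19), as they were for 5.67% of all genes tested. The pair was picked as lowest in Prx, so Prx is in this count by that choice. Genes that vary with Prx are not independent of it, and the count is a description that tests nothing.

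Other cell type genes divided in the same mice. Moxd1, of the perineurium list, was at 7.15 and 0 percent of the SCI median, Dcn (decorin), a fibroblast proteoglycan, at 6.82 and 5.58, and Lama2, a laminin of the Schwann cell basal lamina and other tissues, at 47 and 24.8. Cdh19, a cadherin of the Schwann cell lineage, was at 99.5 and 82, and Sox10, shared by Schwann cells and oligodendrocytes, at 135 and 97.8. Mog was at 99.9 and 113, the astrocyte gene Gfap at 90.7 and 88.8, and Snap25 at 99.4 and 130. The pair were the 2 lowest for 8 of 8 fibroblast and meningeal genes, 5 of 6 perineurial genes, 3 of 7 other Schwann cell genes and 5 of 11 genes of the dystroglycan complex and basal lamina, but for 0 of 11 central myelin genes and 0 of 4 dorsal root ganglion genes tested. The part of these cell types in the low levels was not tested.

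**Figure D3:**
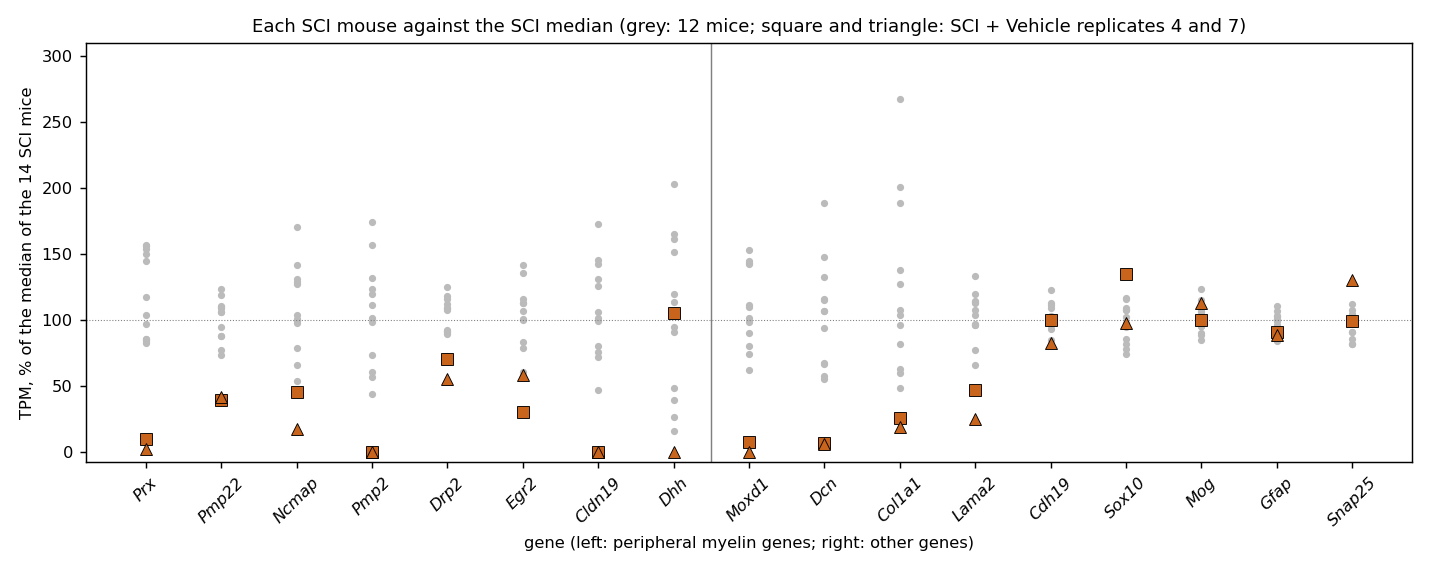
TPM of each of the 14 SCI mice in percent of their median (vertical axis) for the 8 genes, left of the line, and for 9 genes of other lists, right of it (horizontal axis), with a square for SCI + Vehicle replicate 4, a triangle for replicate 7 and grey points for the other 12 mice. Both marked mice lie near 0 in Prx, Pmp2, Cldn19, Moxd1 and Dcn and between 82 and 135 in Cdh19, Sox10, Mog, Gfap and Snap25.

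The spread of the 8 genes among vehicle mice differed with and without this pair. The median of their coefficients of variation in CPM was 27% in SCI + Atorvastatin and 65.9% in SCI + Vehicle, and 26.4% in SCI + Vehicle without replicates 4 and 7. Among the 5 remaining vehicle mice, Drp2 (13%) and Prx (13.9%) varied least and Dhh (105%) most. A low spread of Prx was built into the choice of the pair, which was picked on Prx. These mice fall apart from the rest, so correlations are given without them, on log2 CPM with each group's mean subtracted. Over the other 12 mice, 24 of the 28 pairs of genes correlated positively, with a median Pearson r of 0.456. By Pearson r, only Prx with Drp2 had an adjusted p below 0.05 over the 28 pairs, with r = 0.766 (permutation p = 1e-05, the smallest the permutations can give, adjusted p = 0.00028) and Spearman rho = 0.884 (permutation p = 1e-05, adjusted p = 0.00028). By Spearman rho, Pmp22 also passed with Prx (rho = 0.762, permutation adjusted p = 0.0357) and with Drp2 (rho = 0.818, permutation adjusted p = 0.0472). The r of Prx with Drp2 was 0.718 without the 2 further mice farthest from the median of Prx. Pairs with Egr2 had r from -0.243 to 0.173. Within the 7 SCI + Atorvastatin mice Prx and Drp2 had r = 0.798 (exact permutation p = 0.000397, adjusted p = 0.0111) and rho = 0.964 (exact permutation p = 0.00278, adjusted p = 0.0778), where replicates 4 and 6 were the 2 mice with low Prx.

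Prx was compared in the same way with 1 marker of each of 7 other cell types, and no relation had an adjusted p below 0.05 over the 12 mice. Col1a1, a collagen of fibroblasts, had r = 0.685 (permutation p = 0.0226, adjusted p = 0.159) and rho = 0.694 (permutation p = 0.024, adjusted p = 0.168), with r = 0.739 without the 2 further mice farthest from the median. The other 6 markers, Scn10a, Cldn1, Mog, Aif1, Gfap and Chat, had r between 0.069 and 0.268. The labels give no batch, so none could be taken into account.

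**Figure D4:**
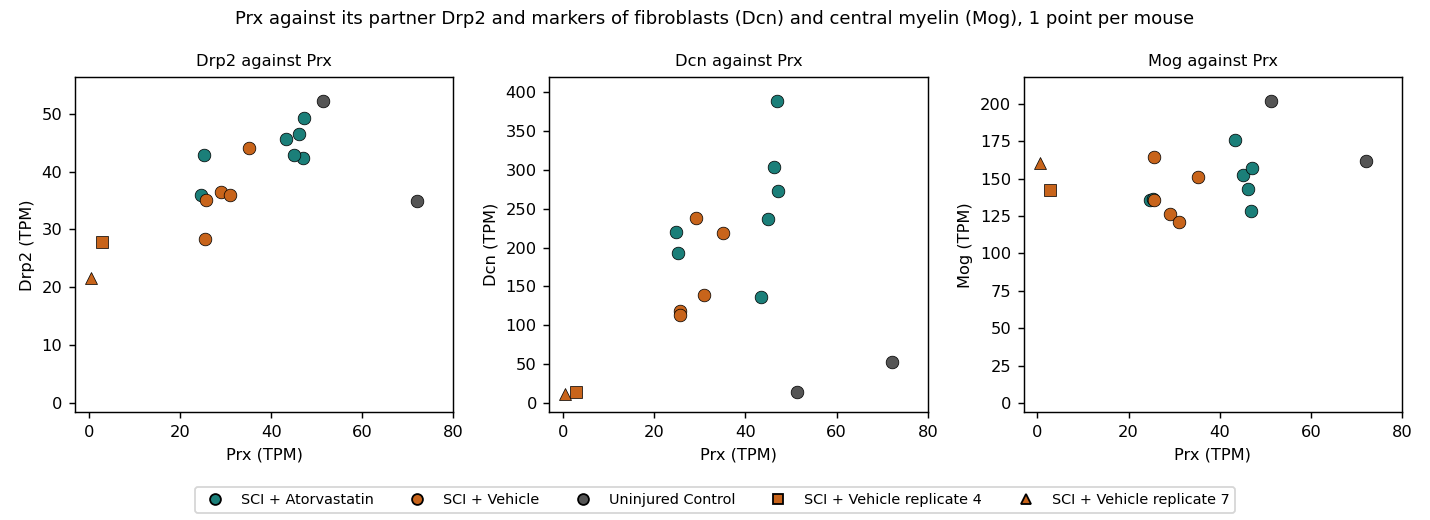
TPM of Prx (horizontal axes) against TPM of Drp2, Dcn and Mog (vertical axes) in 16 mice, 1 point per mouse, coloured by group, with a square and a triangle for SCI + Vehicle replicates 4 and 7. The marked mice have the lowest Prx and Drp2 but Mog within the range of the others, and the 2 control mice have the highest Prx beside Dcn of 52.75 and 14 TPM, below the 12 unmarked SCI mice.

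Prx was also read per TPM of the fibroblast gene Dcn. The ratio was 1.37 and 3.67 in the controls, against 0.112 to 0.318 in SCI + Atorvastatin and 0.0453 to 0.225 in SCI + Vehicle mice, so that both controls lay above every SCI mouse.

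Calls in this and the following lists stand beside those over all genes tested, 19.8% higher and 9.55% lower with vehicle, and 24.9% and 14% with atorvastatin. Without replicates 4 and 7, 27.2% of all genes were called with vehicle in either direction. Among the 7 other Schwann cell genes, 2 were called higher in both comparisons with the Uninjured Control, Cdh19 and Sbspon, and 0 lower. Of the 7, 2 were at 0 TPM in both controls, and like Dhh such a gene could only be called higher. Without replicates 4 and 7 the fitted log2 fold change with vehicle was 9.38 for Sbspon and 8.85 for Dhh, which had 0 counts in the controls. The call of Sbspon is therefore not read as a result. Cdh19 was at 5.72 and 10.97 TPM in the controls, 29.75 to 35.67 TPM in SCI + Atorvastatin mice and 26.28 to 39.32 TPM in SCI + Vehicle mice. Its log2 fold change was 1.59 with atorvastatin (adjusted p = 9.8e-05 from edgeR) and 1.60 with vehicle (adjusted p = 8.44e-04 from edgeR), or 1.67 (adjusted p = 0.00273 from edgeR) without replicates 4 and 7. With atorvastatin, Cdh19 thus rose and Prx fell against the same controls. Of the 6 tested genes of repair Schwann cells, 2 were called higher with vehicle, Runx2 and Artn, both at 0 counts in the controls, and these and Jun with atorvastatin. Like Dhh, Runx2 and Artn entered the test only through the SCI groups, so that a call could only be higher. Jun, a transcription factor of the repair state, had a log2 fold change of 0.59 (adjusted p = 0.0267 from edgeR) with atorvastatin and 0.49 (adjusted p = 0.0651 from edgeR) with vehicle, or 0.54 (adjusted p = 0.0814 from edgeR) without replicates 4 and 7. The same 2 repair genes, Runx2 and Artn, were called with vehicle without these mice.

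The partners of periaxin and DRP2 were counted next. Of 11 genes of the dystroglycan complex and the basal lamina, 3 were called higher and 1 lower with vehicle, 5 and 1 without replicates 4 and 7, and 6 and 1 with atorvastatin. Dag1, which encodes dystroglycan, rose with vehicle (log2 fold change 0.78, adjusted p = 0.00541 from edgeR, or 0.84, adjusted p = 0.00629, without replicates 4 and 7) and with atorvastatin (0.94, adjusted p = 7.9e-04 from edgeR). Lama2 rose with atorvastatin (1.58, adjusted p = 9.09e-05 from edgeR), from 7.02 and 7.14 TPM in the controls to 17.24 to 23.91. With vehicle Lama2 was at 0.99 (adjusted p = 0.154 from edgeR), and at 1.27 (adjusted p = 0.00913 from edgeR), a call, without replicates 4 and 7. Dystroglycan and laminins are made by many cells of the cord, and no source of these counts was tested.

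Of 9 partners and upstream regulators of EGR2, 2 were called higher and 1 lower with vehicle, 1 and 1 without replicates 4 and 7, and 3 and 1 with atorvastatin. Sox10 had log2 fold changes of -0.001 with vehicle and 0.002 with atorvastatin (adjusted p = 1 for both from edgeR), and of -0.11 with vehicle without replicates 4 and 7. In CPM, Uninjured Control replicates 1 and 2 were at 56.7 and 144 percent of the SCI median of Sox10, below and above all 14 SCI mice. The values near 0 thus lie between 2 unlike controls. Yap1, a coactivator upstream of Egr2 in Schwann cells, rose in both (1.00 and 1.21, adjusted p = 0.0362 and 0.00901 from edgeR), but the call with vehicle was lost without replicates 4 and 7 (1.06, adjusted p = 0.0618 from edgeR). The windows of 250 bases before RefSeq starts were searched on both strands for the EGR core GTGGGCG, found in 7.02% of 32851 windows, and for the SOX cores ACAAAG and ACAATG, of which 25.2% hold either. Windows were found for 6 of the 8 genes, all but Pmp2 and Drp2. The EGR core was in both Cldn19 windows, which overlap and share 1 site, and in 1 of 5 Egr2 windows. No window of the 6 genes held a SOX core. Cldn19 is shown up to the start of its gene model as the member with this match (chr4:119255191-119255413, plus strand, GRCm38.p6, 223 bases), with the EGR core in capitals.
Cldn19 upstream: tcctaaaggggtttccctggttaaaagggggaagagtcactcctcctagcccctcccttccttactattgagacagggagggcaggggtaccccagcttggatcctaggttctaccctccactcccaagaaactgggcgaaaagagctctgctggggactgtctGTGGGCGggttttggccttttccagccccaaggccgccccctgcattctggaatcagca

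The pathway of Dhh was counted from 14 tested hedgehog genes, of which 2 were called lower with vehicle, and 1 higher and 2 lower with atorvastatin. Ptch1, the receptor, fell with vehicle (log2 fold change -0.37, adjusted p = 0.0282 from edgeR) and with atorvastatin (-0.51, adjusted p = 0.00563 from edgeR), from 59.31 and 62.68 TPM in the controls to medians of 52.43 and 40.77. Gli2, a transcription factor of the pathway, fell in both (-1.39 and -1.54, adjusted p = 0.00366 and 8.35e-04 from edgeR). Without replicates 4 and 7, Ptch1 was -0.41 (adjusted p = 0.0277 from edgeR) and Gli2 -1.43 (adjusted p = 0.00739 from edgeR) with vehicle, both calls, and again 2 hedgehog genes were called lower. Smo, the signal transducer, rose with atorvastatin (0.91, adjusted p = 0.0253 from edgeR), with 0.60 (adjusted p = 0.174 from edgeR) with vehicle, or 0.71 (adjusted p = 0.161 from edgeR) without those mice. Of 6 perineurial genes, the tissue that receives Dhh in nerve, 2 were called higher with vehicle and 3 with atorvastatin, led by Moxd1. With vehicle the number was also 2 without replicates 4 and 7. Moxd1 was at 0 in both controls, so that like Dhh it could only be called higher, and 4 of the 6 were at 0 TPM there. The log2 fold changes of the 6 genes were split in sign, 3 above and 3 below 0 with vehicle, and 4 and 2 with atorvastatin. Their summed TPM was 4.99 and 15.78 in the controls, 33.4 to 69.44 in SCI + Atorvastatin mice, 31.93 to 59.39 in 5 SCI + Vehicle mice and 5.23 and 3.17 in replicates 4 and 7. Dhh is shown with the 250 bases before its RefSeq start (chr15:98898541-98898790, minus strand, GRCm38.p6) as the member with counts in injured cord only.
Dhh upstream: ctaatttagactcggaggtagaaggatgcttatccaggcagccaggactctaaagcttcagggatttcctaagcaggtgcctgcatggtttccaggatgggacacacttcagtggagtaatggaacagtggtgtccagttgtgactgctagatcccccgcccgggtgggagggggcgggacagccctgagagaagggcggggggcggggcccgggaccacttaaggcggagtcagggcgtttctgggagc

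Signals from axons to Schwann cells showed 1 of 8 genes called higher with vehicle, 2 without replicates 4 and 7, and 2 higher and 1 lower with atorvastatin. Such counts lie near the shares over all genes tested, 19.8% higher with vehicle, and 24.9% higher and 14% lower with atorvastatin, and are not read as a result about the list. Nrg1, the axonal growth factor that sets myelin thickness, fell with atorvastatin (log2 fold change -0.64, adjusted p = 0.00419 from edgeR) and was at -0.64 (adjusted p = 0.0555 from edgeR) with vehicle, or -0.70 (adjusted p = 0.0809 from edgeR) without replicates 4 and 7. Adgrg6, a receptor that Schwann cells need to start myelin, rose with atorvastatin (1.29, adjusted p = 0.00452 from edgeR) and was at 1.07 (adjusted p = 0.101 from edgeR) with vehicle, where it became a call without replicates 4 and 7 (1.32, adjusted p = 0.0187 from edgeR). Of 11 central myelin genes, 2 were called higher and 1 lower with vehicle, 1 and 1 without replicates 4 and 7, and 2 higher and 2 lower with atorvastatin. Mog fell in both (-0.49 and -0.43, adjusted p = 0.0161 and 0.0128 from edgeR), and with vehicle it was -0.51 (adjusted p = 0.0253 from edgeR) without replicates 4 and 7. No gene of any of the 16 lists passed the limit between the treatments. At an unadjusted p below 0.05 in edgeR stood 6 of 8 fibroblast and meningeal genes, 3 of 7 other Schwann cell genes and 0 of 11 central myelin genes. Without SCI + Vehicle replicates 4 and 7 these counts were 3 of 8 (Col3a1, Dcn and Lum), 2 of 7 (Scn7a and Plekha4) and 0 of 11, and other tools were not run on these lists.

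Markers of other tissues that a cord section can carry were read beside these results. Of 8 dorsal root ganglion genes, 7 were at 0 TPM in both controls, and the sum was 2.23 and 5.33 TPM there, 4.28 to 11.57 in SCI + Atorvastatin and 3.37 to 8.31 in 6 SCI + Vehicle mice. SCI + Vehicle replicate 3 stood at 37.41 and also held 705 TPM of 6 skeletal muscle genes. That muscle sum was 3144 in SCI + Atorvastatin replicate 2 and 169 in replicate 4, 4.87 to 20.55 in the other 11 SCI mice and 32.43 and 74.42 in the controls. The sum of 5 myeloid genes was 43.61 and 103 TPM in the controls, 531.1 to 747.4 in SCI + Atorvastatin and 364.5 to 610.6 in SCI + Vehicle mice, and that of 4 astrocyte genes was 1749 and 2576 TPM in the controls and 6722 to 8600 in SCI mice. The part of these tissues and cells in the results was not tested. The 8 fibroblast and meningeal genes summed to 150.8 and 155.6 TPM in the controls, 473.5 to 1197.6 in SCI + Atorvastatin mice, 356.7 to 723.5 in 5 SCI + Vehicle mice, and 91.86 and 64.82 in replicates 4 and 7. Of these genes 0 were called with vehicle, 3 were called higher without replicates 4 and 7, and 4 were called higher with atorvastatin. The sum of the 7 other Schwann cell genes was 23.89 and 47.33 TPM in the controls, 65.33 to 109.1 in SCI + Atorvastatin mice and 35 to 81.83 in SCI + Vehicle mice, of which the 5 without replicates 4 and 7 lay from 64.99 to 81.83. Nerve root content and Schwann cells within the cord cannot be told apart from these values.

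Of the 10 genes whose log2 CPM went most with the mean of the 8 genes over the 14 SCI mice, group means subtracted, 9 are reported here, Adamts12, Nid1, Lama2, Dcn, Lama4, Mrc1, Col3a1, Ogn and Bgn, with r from 0.953 to 0.923. As a description with no test, the points share SCI + Vehicle replicates 4 and 7, and without these mice r was 0.563 (Ogn) to 0.853 (Adamts12). Most of these encode extracellular matrix proteins or enzymes, such as the collagen Col3a1, the laminin chains Lama2 and Lama4 and the basement membrane linker nidogen (Nid1). Against the Uninjured Control, 7 of the 9 were called higher with atorvastatin (Adamts12, Bgn, Col3a1, Dcn, Lama2, Nid1 and Ogn), and 1 was called with vehicle (Adamts12, higher). Without SCI + Vehicle replicates 4 and 7, 6 were called higher with vehicle (Adamts12, Bgn, Col3a1, Lama2, Nid1 and Ogn). The genes were ranked over mice that include this pair, and Ogn fell from rank 9 to 810 without it. A gain in calls on leaving the pair out was thus built into the choice and tests nothing. Adamts12 was at 0 TPM in both controls. Over all genes tested, 24.9% were called higher with atorvastatin and 19.8% with vehicle.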

How the data were processed

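RNA from spinal cord sections was sequenced as paired ends from a stranded total RNA kit. Per the labels and the processing notes, the authors trimmed reads with Trimmomatic 0.38 after FastQC 0.12.1, aligned them with STAR 2.5.4b to mm10 and quantified genes with RSEM 1.3.1. They deposited raw counts per gene, whole numbers with no normalization, and TPM normalized for gene length. How the whole-number counts were made is not given in the sources used here. Groups were taken from the labels, and p-values cover the spread between these mice only.

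Genes whose mean TPM exceeded 1 in any of the 3 groups (16091 of 24411) were tested with edgeR 4.0.16 in R 4.3.3 (TMM, quasi-likelihood test, the 2 groups of each comparison, Benjamini-Hochberg adjustment over all genes tested). On simulated counts, against the controls, it recovered 3% (vehicle) and 5% (atorvastatin) of log2 changes of 0.5, and 43% and 44% of changes of 1. Between the treatments it recovered 27% and 86%. In every comparison a simulated gene was found at an adjusted p below 0.05, with no limit on the fold change. Of the genes found in this way, 3.92% to 6.61% were false. The rule used for calls between the treatments, an unadjusted p below 0.001, was not simulated, so these shares do not describe it. The simulated controls had the proportions and spread of SCI mice, without the many zeros of the real ones. CPM are TMM-normalized. Alternatives used DESeq2 1.42.0, its size factors in edgeR, no filter, a mean TPM above 1 in every group, all 3 groups in 1 fit, limma 3.58.1 on log2(TPM + 1), voom with group quality weights, the replicate number as a block, and each mouse left out. Correlations were tested with 100000 permutations within groups, or exactly within 7 mice, in Python 3.11.15 with scipy 1.17.1, and figures drawn with matplotlib 3.10.9. Gene positions are from GENCODE on GRCm38 and upstream sequences from RefSeq GRCm38.p6.

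The 8 genes, the 16 other lists and the tests were chosen with earlier results of these data known. The plan was to name from each list its first gene and at most 3 with the smallest p against the Uninjured Control, besides the 8 genes and the 10 most like their mean. Not every such gene is named, among them the liver, skeletal muscle and immediate early genes. Fibroblast and other Schwann cell genes were also named by their p between the treatments. The results of a single gene in these lists are not reported here, and it was left out of its list and of the markers. The deposited tables hold 1 column per mouse.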

Additional observations from a re-analysis of the deposited data

How the results depend on the processing

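Members called numbered 1 with vehicle and 2 with atorvastatin against the Uninjured Control, and 0 between the treatments. With vehicle there were 0 under a mean TPM above 1 in every group, limma on log2(TPM + 1), voom with group quality weights and the replicate block, 2 without SCI + Vehicle replicates 4 and 7 (picked for low Prx after the data were seen), and 0 to 1 with each mouse left out. With atorvastatin there were 1 under a mean TPM above 1 in every group, all 3 groups in 1 fit and limma, 0 under voom and the replicate block, and 1 to 3 with each mouse left out (3 without Uninjured Control replicate 2, where Pmp2 was set against a lone control at 0 counts). The first filter does not test Dhh. Between the treatments there were 0 to 1 with each mouse left out. Member pairs with an adjusted p of Pearson r below 0.05 numbered 15 over all 14 SCI mice, 1 without SCI + Vehicle replicates 4 and 7, and 8 to 19 with each mouse left out (8 without SCI + Vehicle replicate 7). Markers correlated with Prx (adjusted p below 0.05) numbered 1 over 14 mice and 0 without these replicates. The median coefficient of variation in SCI + Vehicle went from 65.9% to 26.4% without them.

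Signs turned, none of them in a call of the main test, for these log2 fold changes. In SCI + Vehicle vs. Uninjured Control, limma gave 0.159 for Ncmap and 1.269 for Egr2, voom 0.074 for Pmp2, and the replicate block 0.137 for Pmp22, 0.71 for Ncmap, 2.581 for Pmp2, 0.032 for Egr2 and 0.566 for Cldn19. Without replicates 4 and 7 Ncmap was 0.034 and Cldn19 0.051. With each mouse left out Ncmap ranged from -0.740 to 0.339, Pmp2 from -2.761 to 7.878 and Cldn19 from -1.001 to 0.615. In SCI + Atorvastatin vs. Uninjured Control, Pmp22 was -0.001 with DESeq2 and with its size factors. Limma gave 0.544 for Pmp2, 0.025 for Drp2 and 1.503 for Egr2, voom 2.179 and the replicate block 2.79 for Pmp2. With each mouse left out Pmp22 ranged from -0.280 to 0.411, Ncmap from -0.354 to 0.733, Pmp2 from -1.789 to 8.887, Drp2 from -0.172 to 0.129, Egr2 from -0.209 to 0.160 and Cldn19 from -0.457 to 1.167. The highest values of Pmp2 were fitted against a lone control at 0 counts and are no bound. Between the treatments Egr2 was -0.001 without replicates 4 and 7. The limma values were fitted on TPM, in which Uninjured Control replicate 2 was at 0 for Egr2 beside 184 counts and at 1.46 for Ncmap beside 115 counts. The limma values of these 2 genes against the controls thus rest on TPM that disagree with the counts. The cause of the other turns was not tested.

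Same-numbered mice of different groups share only a number, since their deviations from the group means correlated at -0.192 to 0.111 and 0 of 7 SCI + Atorvastatin mice correlated best with their own number. Depth and the 2 Uninjured Control mice limit these values, since genes at low counts were often at 0 in 1 or both of them.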
